A study of Mus musculus with 57 samples.

Results

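Ccr1l1, Ccr1, Ccr3, Ccrl2 and Ccr9 are 5 chemokine receptor genes of mouse chromosome 9, found here among 53278 genes of one count table and 50565 genes of another. They were chosen by name from earlier results on these data: Ccr1l1 was near absent in the P2RY12-deficient libraries of the first table and not in those of the second, and the other 4 were listed around it. The levels of Ccr1l1 by genotype are therefore given as a description, without a test. All 5 passed the filter on low counts in both tables. Ccr1l1, Ccr1, Ccr3 and Ccr9 lie within 164 kb of Ccr1l1 or are that gene, whereas Ccrl2 lies 12.9 Mb away and is a neighbour in name only.

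Chemokine receptors are membrane receptors that couple to inhibitory G proteins and steer migrating leukocytes along gradients of small secreted proteins, the chemokines. Ccr1 binds Ccl3, Ccl5 and related ligands and is prominent on neutrophils, monocytes and macrophages. Ccr3 is the eotaxin receptor of eosinophils, Ccr9 is the Ccl25 receptor of gut-homing lymphocytes, and Ccrl2 is an atypical receptor that presents chemerin without signalling itself. Ccr1l1 encodes a receptor protein named for its likeness to Ccr1, and its ligands are not well defined.

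RNA came from CD11b-positive cells of mouse brain, a surface marker shared by microglia and other myeloid cells. Polyadenylated RNA of wild-type mice (WT) and of their littermates without functional P2RY12 (KO), the purinergic receptor of resting microglia, was sequenced. In the LPS experiment, 33 libraries fell into WT without LPS (WT ns), WT after intraperitoneal LPS at 1 mg/kg (WT LPS), KO without LPS (KO ns) and KO after LPS (KO LPS). LPS, bacterial lipopolysaccharide, is an inflammatory stimulus, and the labels give neither the time after injection nor the age or sex of these mice. Each group had 8 samples once libraries 8 and 9 of WT LPS, whose counts were nearly identical (chi-square per degree of freedom 1.86 against 8.32 for the next pair), were summed to 1 sample. The sex experiment had adult male WT (n = 4), male KO (n = 5), female WT (n = 4) and female KO (n = 5) mice, whose libraries carry no treatment label and had Saa3, an LPS-responsive gene, at 0 to 0.361 CPM. Nothing states that libraries of a group came from separate mice, so p-values measure the spread between libraries. The labels do not describe the P2ry12 allele further, and the comparisons within an experiment share samples.

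Total counts were 15.9 M to 168 M per sample in the LPS experiment and 58.5 M to 319 M in the sex experiment (M, mega). P2ry12 remained measurable in KO, with 585 to 1243 CPM (counts of the gene scaled to a common library total) in KO without LPS, 84.2 to 154 CPM after LPS and 309 to 526.4 CPM in the sex experiment, whose WT libraries had 3007 to 5928 CPM. Libraries 1 and 5 of WT ns had P2ry12 at 481 and 927 CPM and Saa3 at 1781 and 2491 CPM. Libraries 1 and 6 of WT LPS had P2ry12 at 4461 and 12154 CPM and Saa3 at 1.59 and 3.21 CPM. These 4 libraries go against their treatment labels, and the results on Ccr1l1, Ccr1 and Ccr3 are given with and without them. Libraries 6 and 7 of WT LPS, 6 of KO ns and 5 of KO LPS stood apart, with a median correlation to the other samples between 0.654 and 0.722. Results are also given without these and the first 4, which leaves 25 samples. The summed level of 8 microglia markers was 14964 to 50159 CPM over the samples of the LPS experiment, and that of the 7 of them listed in the sex experiment's table was 18308 to 29813 CPM there. The tables were counted differently, since 78.1% to 87.5% of low counts were even numbers in the sex experiment and 40.8% to 46.0% in the LPS experiment, so levels are compared within a table only. In bulk RNA, fewer cells of a type and less RNA per cell cannot be told apart.

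The genes lie on GRCm39 as follows, by the coordinates deposited with the sex experiment. Ccr1l1 spans chr9:123776467-123786752 on the minus strand and Ccr1 spans chr9:123762163-123768729 on the same strand, 7.74 kb away. Ccr3 spans chr9:123817799-123831729 on the plus strand, 31 kb away on the other side. Ccr9 spans chr9:123596276-123612522 on the plus strand, 164 kb away, and overlaps the predicted gene Gm17021, so that its reads could be shared with that gene. Ccrl2 spans chr9:110883902-110886586 on the minus strand.

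Ccr1l1 and its neighbours are related in sequence, which bears on whether their reads can be told apart. In GENCODE vM21 (GRCm38), the coding sequence of Ccr1l1 has 1068 bases in a transcript of 1 exon, and 75.96% of aligned bases were identical between Ccr1l1 and Ccr1, 63.42% between Ccr1l1 and Ccr3 and 67.83% between Ccr1 and Ccr3. The longest run of bases that the transcripts of Ccr1l1 and Ccr1 shared was 31, and none of the 1117 stretches of 50 bases in the Ccr1l1 transcript occurred in those of Ccr1 or Ccr3. That transcript has 1166 bases, whereas the Ccr1l1 span in the sex experiment's coordinates has 10286, and the rest of the span was not compared. The stretch around that run is given for the 3 genes, from coding base 175 to 264 of Ccr1l1 (chr9:123978145-123978234 on GRCm38, minus strand). Capitals in Ccr1l1 mark the 31 bases shared with Ccr1, and capitals in the other genes mark bases equal to those of Ccr1l1, 80 of 90 in Ccr1 (chr9:123964231-123964320, minus strand) and 66 of 90 in Ccr3 (chr9:124028813-124028902, plus strand).
Ccr1l1: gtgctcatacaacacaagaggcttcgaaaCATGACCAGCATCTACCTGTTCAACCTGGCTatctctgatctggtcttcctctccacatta
Ccr1: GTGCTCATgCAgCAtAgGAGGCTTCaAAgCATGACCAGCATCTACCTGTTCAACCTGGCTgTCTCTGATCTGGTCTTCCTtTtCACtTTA
Ccr3: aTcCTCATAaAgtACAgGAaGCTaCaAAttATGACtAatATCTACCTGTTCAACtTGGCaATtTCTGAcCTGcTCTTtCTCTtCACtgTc
Ccr1 differs from Ccr1l1 on both sides of the shared run, and Ccr3 differs from it within that run too. The read length is not given in the sources used here.

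The promoters of Ccr1l1 and Ccr1, its nearest neighbour among the 5 genes, are shown because both had lower mean levels in KO in the LPS experiment. They are the 250 bases before the start in RefSeq on GRCm38.p6, at chr9:123986716-123986965 for Ccr1l1 and chr9:123968693-123968942 for Ccr1, both on the minus strand. The RefSeq start of Ccr1l1 is not that of the 1-exon GENCODE transcript compared above. All 5 genes had an entry, with 3 for Ccrl2. Capitals mark matches to the TATA box motif TATAAA, to the motif of the transcription factor AP-1, spelled TGANTCA, to the core motif of PU.1, a transcription factor of myeloid cells, spelled GAGGAA, to the NF-kappaB motif or to the interferon-stimulated response motif, searched on both strands.
Ccr1l1: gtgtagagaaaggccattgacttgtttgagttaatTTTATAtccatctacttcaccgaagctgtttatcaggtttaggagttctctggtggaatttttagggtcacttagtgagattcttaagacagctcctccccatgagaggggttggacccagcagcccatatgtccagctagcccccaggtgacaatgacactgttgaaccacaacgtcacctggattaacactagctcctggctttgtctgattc
Ccr1: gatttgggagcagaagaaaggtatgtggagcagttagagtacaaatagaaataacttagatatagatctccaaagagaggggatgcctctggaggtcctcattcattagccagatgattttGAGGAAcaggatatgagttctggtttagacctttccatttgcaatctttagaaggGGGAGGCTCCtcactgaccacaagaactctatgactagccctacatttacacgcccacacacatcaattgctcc
The Ccr1l1 promoter held 1 match, to TATAAA on the opposite strand, beginning 215 bases before the start. The Ccr1 promoter held a GAGGAA match from 129 bases and an NF-kappaB match from 74 bases before the start. Of 32851 mouse promoters of this length, 12.37% held the TATA box motif, 6.749% the AP-1 motif, 23.25% the PU.1 motif, 17.63% the NF-kappaB motif and 2.977% the interferon-stimulated response motif. The Ccr3 promoter matched the AP-1, PU.1 and NF-kappaB motifs once each, the last overlapping the second, and those of Ccr9 and of 1 Ccrl2 entry matched the NF-kappaB motif.

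Ccr1l1, the receptor named for its likeness to Ccr1, was at 92.2 to 532 CPM in WT samples of the LPS experiment with 1 exception and at 0.360 to 8.50 CPM in KO samples. In WT ns the 8 samples were at 95.7, 106, 181, 294, 281, 145, 92.2 and 190 CPM, in the order of their numbers. In WT LPS they were at 142, 333, 350, 272, 1.21, 163, 511 and 532 CPM. In KO ns they were at 2.28, 1.81, 1.97, 1.94, 2.38, 8.50, 1.49 and 1.76 CPM. In KO LPS they were at 0.818, 0.896, 1.11, 0.511, 1.66, 0.856, 0.553 and 0.360 CPM. Every WT sample but library 5 of WT LPS was above every KO sample, and the lowest of the other WT samples, at 92.2 CPM, compares with 8.50 CPM in the highest KO sample, library 6 of KO ns, which is 1 of those that stood apart.

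The order of the group means was WT LPS (288 ± 183 CPM, SD, n = 8), WT ns (173 ± 79.8 CPM, n = 8), KO ns (2.77 ± 2.33 CPM, n = 8) and KO LPS (0.846 ± 0.410 CPM, n = 8). The ranges of the 2 WT groups overlapped, as did those of the 2 KO groups. KO minus WT was fitted at −6.02 on the log2 scale without LPS and at −8.40 with LPS. Without the 4 libraries against their labels these values were −5.96 and −8.59, and also without those that stood apart they were −6.42 and −8.63. The values chose the gene and are given without a test.

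The 4 WT libraries that go against their treatment labels kept the high Ccr1l1 of WT, at 95.7 and 281 CPM in WT ns and at 142 and 163 CPM in WT LPS. Library 5 of WT LPS was the reverse case. It had 26 counts of Ccr1l1, or 1.21 CPM, which lies within the range of KO LPS and below that of KO ns. Its P2ry12 level, 542 CPM, lay among those of the other WT LPS libraries that match their labels (400 to 1063 CPM) and above every KO LPS library (84.2 to 154 CPM), and its Saa3 level was 1418 CPM. It is named with number 1 in the second set of libraries, a number that no other library carries.

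**Figure D1:**
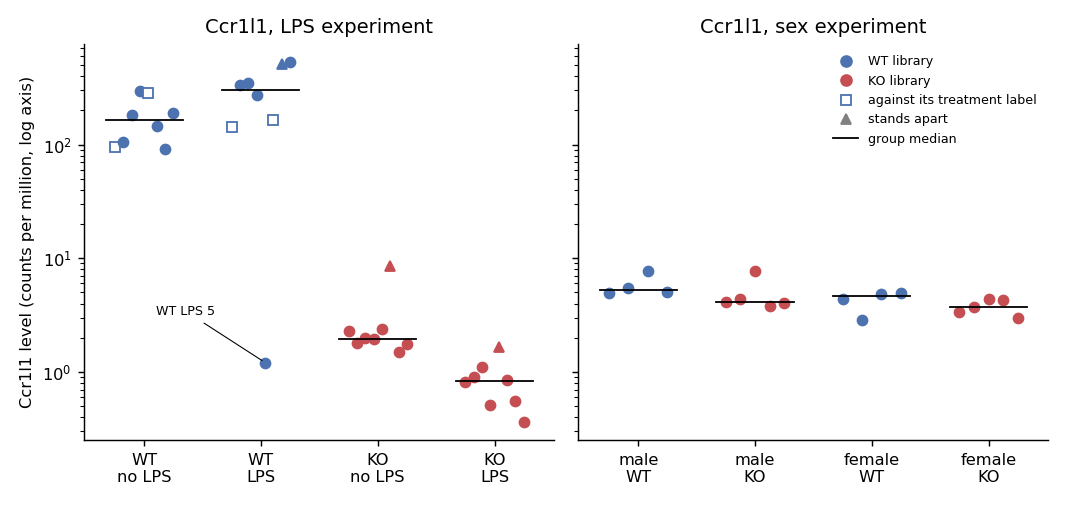
Ccr1l1 level in CPM (log axis) in each library of the LPS experiment (left) and the sex experiment (right), with the group median as a line, open squares for libraries against their treatment labels and triangles for libraries that stood apart. WT libraries of the LPS experiment sit between 92.2 and 532 CPM except library 5 of WT LPS at 1.21 CPM, and KO libraries sit between 0.360 and 8.50 CPM. Libraries of the sex experiment sit between 2.84 and 7.67 CPM over both genotypes, and levels are compared within an experiment only.

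In the sex experiment Ccr1l1 was low in both genotypes. Male WT libraries were at 5.52, 7.67, 5.09 and 4.95 CPM (5.81 ± 1.26, SD, n = 4) and male KO libraries at 4.13, 4.37, 7.67, 3.83 and 4.07 CPM (4.81 ± 1.61, n = 5). Female WT libraries were at 4.42, 2.84, 4.80 and 4.91 CPM (4.24 ± 0.962, n = 4) and female KO libraries at 3.38, 3.76, 4.37, 4.30 and 2.96 CPM (3.75 ± 0.603, n = 5). All groups overlapped, and the fitted difference, KO minus WT averaged over the sexes, was −0.22 on the log2 scale, again without a test. The female minus male genotype difference of Ccr1l1, 0.09 ± 0.30 (log2, SE; edgeR quasi-likelihood test, adjusted p = 0.999), did not pass the test. No gene was called in that sex-by-genotype comparison (0% of 31709 genes tested; 879 at an unadjusted p under 0.05, and 0 by DESeq2).

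Within KO, Ccr1l1 was lower after LPS. It fell by 1.65 ± 0.57 on the log2 scale (SE; 3.13-fold; edgeR, adjusted p = 0.0367), in a comparison that called 22.3% of the 15857 genes tested. Counts were 39 to 112 per sample in KO ns and 9 to 41 in KO LPS. Without the 4 WT libraries against their labels the difference was −1.62 ± 0.61 (adjusted p = 0.0459; 28.5% of genes called). Without those that stood apart as well it was −1.40 ± 0.68 and was not called (adjusted p = 0.0918; 48% of genes called), while KO ns samples were then at 1.49 to 2.38 CPM (n = 7) and KO LPS samples at 0.360 to 1.11 CPM (n = 7), without overlap. The SE rests on an estimate of spread shared by all 4 groups, with library 5 of WT LPS included. In WT the difference with LPS was 0.73 ± 0.52 (adjusted p = 0.393) and was not called, in a comparison with 0% of genes called by edgeR (3605 at an unadjusted p under 0.05, and 732 called by DESeq2). When the 4 libraries against their labels were left out, it was 1.01 ± 0.63 (adjusted p = 0.231; 30.7% called), without those that stood apart as well 0.82 ± 0.57 (adjusted p = 0.257; 45.7% called), and without library 5 of WT LPS alone 0.92 ± 0.35 (adjusted p = 0.138).

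Ccr1, the inflammatory chemokine receptor next to Ccr1l1, fell in KO against WT with LPS, and the call depended on which libraries entered. In WT ns the samples ranged from 37.0 to 160 CPM with a median of 67.3 (93.0 ± 53.2, SD, n = 8), and in KO ns from 15.4 to 77.5 CPM with a median of 32.2 (35.7 ± 20.2, n = 8). In WT LPS they ranged from 92.2 to 303 CPM with a median of 116 (156 ± 84.1, n = 8), and in KO LPS from 28 to 92.2 CPM with a median of 38.1 (44.9 ± 21.02, n = 8). The ranges overlapped without LPS. With LPS they met, with the lowest WT sample, library 5, at 92.247 CPM and the highest KO sample, library 5 of KO LPS, which stood apart, at 92.216 CPM.

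With LPS, Ccr1 fell by 1.77 ± 0.33 on the log2 scale in KO against WT (SE; 3.405-fold; edgeR, adjusted p = 0.0194), where 0.126% of all genes were called. Without the 4 libraries against their labels the difference was −1.62 ± 0.37 and not called (adjusted p = 0.127; 0.0746% called), and without those that stood apart as well it was −1.58 ± 0.32 and called (adjusted p = 0.0375; 0.136% called). It was also not called without the libraries that stood apart alone (−1.58 ± 0.32, adjusted p = 0.0744) or without every library numbered 2 (−1.82 ± 0.41, adjusted p = 0.130). Without LPS the difference was −1.37 ± 0.33 (adjusted p = 0.136; 0.114% called), −1.29 ± 0.37 without the 4 (adjusted p = 0.400; 0.0932% called) and −1.52 ± 0.31 without both sets, where it was called (adjusted p = 0.0262; 0.26% called). The members were listed with these contrasts known, so nothing is read from these calls against the shares of all genes. Within the first set of libraries the differences were −1.32 ± 0.39 without and −1.60 ± 0.40 with LPS, and within the second set −1.46 ± 0.53 and −1.74 ± 0.53, with adjusted p from 0.405 to 0.997 in these smaller fits.

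The Ccr1 difference with LPS minus that without it was −0.40 ± 0.46 (log2, SE; edgeR, adjusted p = 0.784), which did not pass the test. It was −0.33 ± 0.53 without the 4 libraries against their labels (adjusted p = 0.849) and −0.06 ± 0.44 without both sets (adjusted p = 0.982). The interaction called 0% of genes by edgeR (1698 at an unadjusted p under 0.05, and 11 by DESeq2). LPS against none gave 0.70 ± 0.33 for Ccr1 in WT (adjusted p = 0.197) and 0.31 ± 0.33 in KO (adjusted p = 0.558), neither called. Without the 4 libraries against their labels it gave 0.68 ± 0.40 in WT (adjusted p = 0.202) and 0.35 ± 0.35 in KO (adjusted p = 0.509). Without both sets it gave 0.41 ± 0.33 in WT (adjusted p = 0.329) and 0.35 ± 0.29 in KO (adjusted p = 0.343), again not called. Neutrophils carry Ccr1, and 8 neutrophil markers summed to 292 to 14222 CPM in WT ns (median 2082), 258 to 10050 CPM in KO ns (median 785), 1660 to 13309 CPM in WT LPS (median 3062) and 949 to 4433 CPM in KO LPS (median 2033). None of the 8 was at 0 in all samples of a group. With all libraries, 0 of 8 were called in KO against WT, where 0.114% of all genes were called without LPS and 0.126% with LPS. All 8 were lower in KO in either treatment in these fits, which include the libraries against their labels and those that stood apart. Without both sets of libraries the marker sums were 1660 to 3255 CPM in WT LPS and 949 to 3105 CPM in KO LPS, with overlap. Without LPS they were then 292 to 14222 CPM in WT and 258 to 6096 CPM in KO. The part of neutrophils in the Ccr1 difference was not tested.

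**Figure D2:**
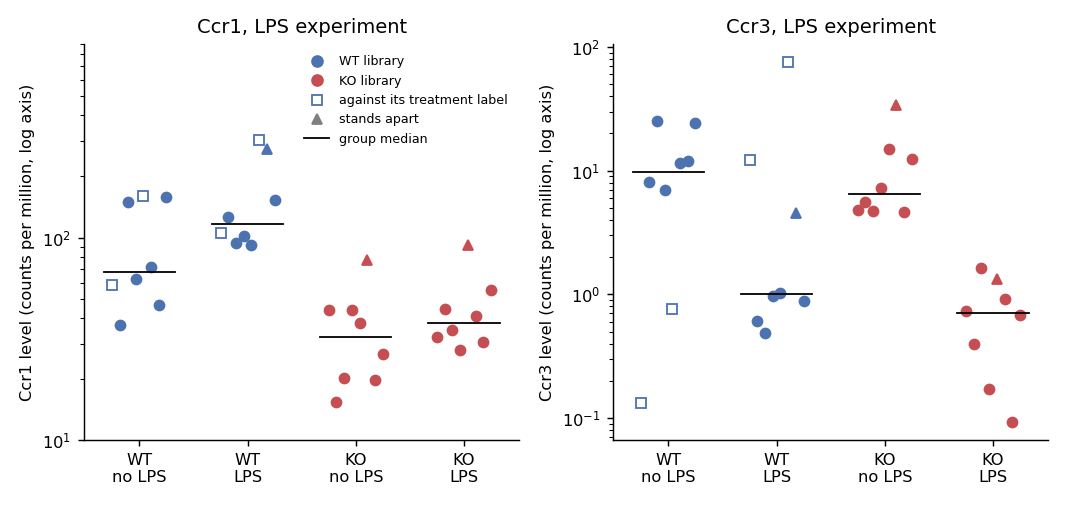
Ccr1 (left) and Ccr3 (right) levels in CPM (log axes) in each library of the LPS experiment, with symbols for libraries against their labels and libraries that stood apart, and group medians as lines. Ccr1 has medians of 67.3 and 116 CPM in WT against 32.2 and 38.1 CPM in KO, and the Ccr3 levels of the 4 WT libraries against their labels sit with the other treatment.

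Ccr3, the eotaxin receptor, fell after LPS in KO, and in WT once the 4 libraries against their labels were left out. KO ns samples ranged from 4.65 to 34.0 CPM with a median of 6.44 (11.1 ± 10.1, SD, n = 8), and KO LPS samples from 0.0921 to 1.63 CPM with a median of 0.704 (0.741 ± 0.538, n = 8). The 2 groups did not overlap. The difference was −3.65 ± 0.96 on the log2 scale (SE; 12.6-fold lower; edgeR, adjusted p = 0.00689), −3.67 ± 0.55 without the 4 libraries (adjusted p = 9.5e-06) and −3.50 ± 0.45 without both sets (adjusted p = 8.1e-07). Within the first set of libraries by itself it was −2.93 ± 1.20 (adjusted p = 0.0749) and within the second −4.31 ± 1.36 (adjusted p = 0.194).

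In WT as labelled, Ccr3 ranged from 0.132 to 25.2 CPM without LPS (median 9.83, n = 8) and from 0.483 to 75.5 CPM with LPS (median 0.997, n = 8). The low WT ns values were those of libraries 1 and 5, at 0.132 and 0.765 CPM, and the highest WT LPS values those of libraries 1 and 6, at 12.2 and 75.5 CPM, the same libraries that go against their labels in P2ry12 and Saa3. As labelled the difference was −0.28 ± 0.87 (log2, SE; edgeR, adjusted p = 0.871). Without these 4 libraries, WT ns samples were at 6.95 to 25.2 CPM (14.7 ± 8.07, SD, n = 6) and WT LPS samples at 0.483 to 4.57 CPM (1.42 ± 1.56, n = 6), without overlap, and Ccr3 fell by 3.53 ± 0.62 (adjusted p = 9.5e-05). Without both sets it fell by 4.15 ± 0.53 (adjusted p = 9.1e-07).

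No difference in Ccr3 between KO and WT was called by edgeR. Without LPS the difference was −0.25 ± 0.85 (log2, SE; edgeR, adjusted p = 0.947) as labelled, −0.56 ± 0.52 without the 4 libraries (adjusted p = 0.633) and −0.89 ± 0.40 without both sets (adjusted p = 0.259). With LPS it was −3.62 ± 0.97 (adjusted p = 0.184) as labelled, −0.71 ± 0.57 without the 4 libraries (adjusted p = 0.975) and −0.25 ± 0.50 without both sets (adjusted p = 0.999). The interaction was −3.38 ± 1.29 as labelled (adjusted p = 0.422), −0.14 ± 0.77 without the 4 and 0.64 ± 0.65 without both sets. Eosinophils carry Ccr3, and the summed level of 8 eosinophil markers was 40.9 to 436 CPM in KO ns and 17.2 to 118 CPM in KO LPS, 21.9 to 1208 CPM in WT ns and 12.3 to 263 CPM in WT LPS, with none of the 8 at 0 throughout a group. Of the 8 markers, 0 were called in KO with LPS, where 22.3% of all genes were called (median −1.36 on the log2 scale, against −0.02 over all genes). Without both sets of libraries 2 were called lower in KO (median −0.43), where 48% of all genes were called in either direction, and 8 in WT (median −4.99), where 45.7% were. Their part in the fall of Ccr3 was not tested.

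Ccrl2, the atypical chemerin receptor, was higher in KO in the sex experiment. Male WT libraries were at 27.8, 23.99, 21.3 and 42.3 CPM (28.8 ± 9.38, SD, n = 4) and male KO libraries at 48.8, 41.7, 44.5, 30.99 and 40.2 CPM (41.2 ± 6.60, n = 5). Female WT libraries were at 30.5, 33.5, 38.4 and 34.2 CPM (34.2 ± 3.29, n = 4) and female KO libraries at 41.5, 58.3, 58.3, 67.9 and 62.4 CPM (57.7 ± 9.89, n = 5). The female groups did not overlap and the male groups did, through male WT library 5 at 42.3 CPM. Averaged over the sexes Ccrl2 was 0.64 ± 0.13 higher on the log2 scale in KO (SE; 1.55-fold; edgeR, adjusted p = 0.0343), where 0.432% of 31709 genes were called. Leaving out 15 of the 18 libraries in turn each ended the call, with log2 differences from 0.57 to 0.67 and adjusted p from 0.0532 to 0.0962. Male WT 5 and female WT 2, the 2 libraries with the most neutrophil marker RNA, were also left out together, a choice made after seeing the data. Male WT 5 had the highest Ccrl2 of the WT libraries, so leaving it out lowers the male WT mean. The KO difference was then 0.76 ± 0.12 (adjusted p = 0.00191), and nothing is read from that rise. The difference between the sexes in this effect was 0.24 ± 0.25 (adjusted p = 0.999).

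In the LPS experiment Ccrl2 was between 6.88 and 70.6 CPM and passed no test. KO against WT was 0.36 ± 0.31 (log2, SE; edgeR, adjusted p = 0.789) without LPS and −0.41 ± 0.31 with LPS (adjusted p = 0.847), and the second turned to 0.12 ± 0.19 without both sets of libraries. LPS against none was 0.81 ± 0.31 in WT (adjusted p = 0.148) and 0.04 ± 0.31 in KO (adjusted p = 0.948). Library 7 of WT LPS, 1 of those that stood apart, was at 70.6 CPM against 7.29 to 22.4 CPM in the others, and the WT value was 0.27 ± 0.20 without both sets (adjusted p = 0.276).

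Ccr9, the Ccl25 receptor, was low in both experiments. Samples of the LPS experiment held 4 to 61 counts, or 0.214 to 2.603 CPM, and the deeper libraries of the sex experiment 44 to 293 counts, or 0.554 to 1.42 CPM. Its largest fitted difference with all libraries was 0.55 ± 0.38 (log2, SE) for LPS in KO, with an adjusted p of 0.316 by edgeR. Group means were 0.675 to 1.01 CPM in the LPS experiment and 0.922 to 1.11 CPM in the sex experiment, and no comparison of Ccr9 was called.

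**Figure D3:**
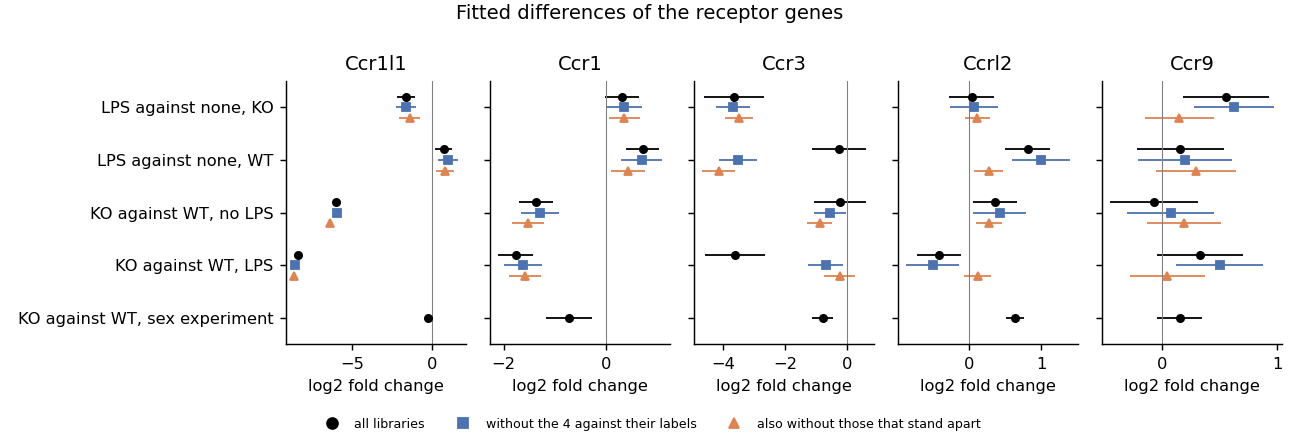
Fitted log2 fold changes of the 5 receptor genes in 5 comparisons, with SE bars (none for the KO against WT values of Ccr1l1, which chose the gene), with all libraries, without the 4 against their labels, and also without those that stood apart. Axes differ between panels: Ccr1l1 reaches −8.63 in KO against WT with LPS, and the LPS difference of Ccr3 in WT moves from −0.28 to −3.53 when the 4 libraries are left out.

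Ccr1 and Ccr3 in the sex experiment were highest in the same 2 WT libraries. Ccr1 was at 29.2, 40.2, 60.9 and 189 CPM in male WT and at 16.8, 139, 33.6 and 33.8 CPM in female WT, the high values being male WT 5 and female WT 2, against 21.5 to 66.9 CPM over the 10 KO libraries. Ccr3 was at 33.4 CPM in male WT 5 and 21.5 CPM in female WT 2, and at 3.02 to 11.9 CPM in all other libraries. The summed neutrophil markers were at 42081 and 24892 CPM in these 2 libraries and at 646 to 6737 CPM in the others, and the summed eosinophil markers at 2407 and 1577 CPM against 69.2 to 455 CPM. Ccr1l1 was at 4.95 and 2.84 CPM in them, not above the other libraries. KO against WT was −0.73 ± 0.45 for Ccr1 (log2, SE; edgeR, adjusted p = 0.702) and −0.80 ± 0.33 for Ccr3 (adjusted p = 0.512), neither called. Without the 2 libraries the values were 0.20 ± 0.30 and −0.21 ± 0.24. These 2 libraries, both WT and highest in both genes, were chosen after seeing the data, so leaving them out is no test of cell content. The part of other blood cells in these levels was not tested.

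**Figure D4:**
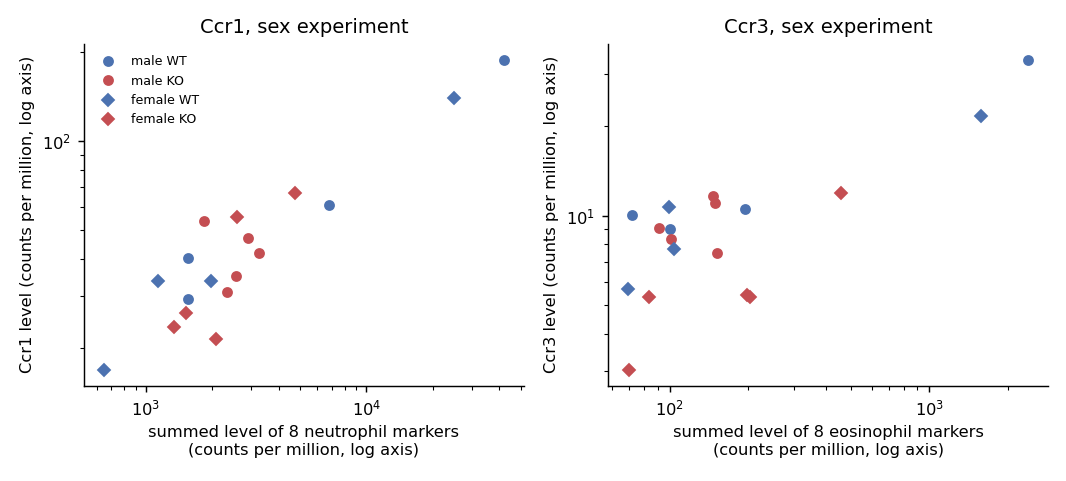
Ccr1 level against the summed level of 8 neutrophil markers (left) and Ccr3 level against that of 8 eosinophil markers (right) in the 18 libraries of the sex experiment, all axes logarithmic and in CPM, 1 point per library. Male WT 5 and female WT 2 sit at the upper right of both panels, with neutrophil sums of 42081 and 24892 CPM.

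In the LPS experiment the genes beside Ccr1l1 had smaller KO against WT differences than Ccr1l1, whose values chose it. Within 500 kb on either side the sex experiment's table lists 27 other genes, of which 20 are in the LPS experiment's table and 16 were tested there. In KO against WT, 0 of 16 were called without LPS and 1 with LPS, Ccr1, against 0.114% and 0.126% of all genes. The lowest log2 difference without LPS was that of Ccr1, at −1.37, and with LPS the differences ranged from −3.62 for Ccr3 to 0.46. When the 4 libraries against their labels were left out, the range with LPS was −1.62 to 0.61, beside −8.59 for Ccr1l1. The sex experiment called 0.432% of all genes and 0 of 26 tested neighbours, which ranged from −0.80 to 0.53 beside −0.22 for Ccr1l1. With LPS in KO, where 22.3% of all genes were called in either direction, Ccr3 and Ccr2 were among the neighbours called lower, and 0 were called higher.

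**Figure D5:**
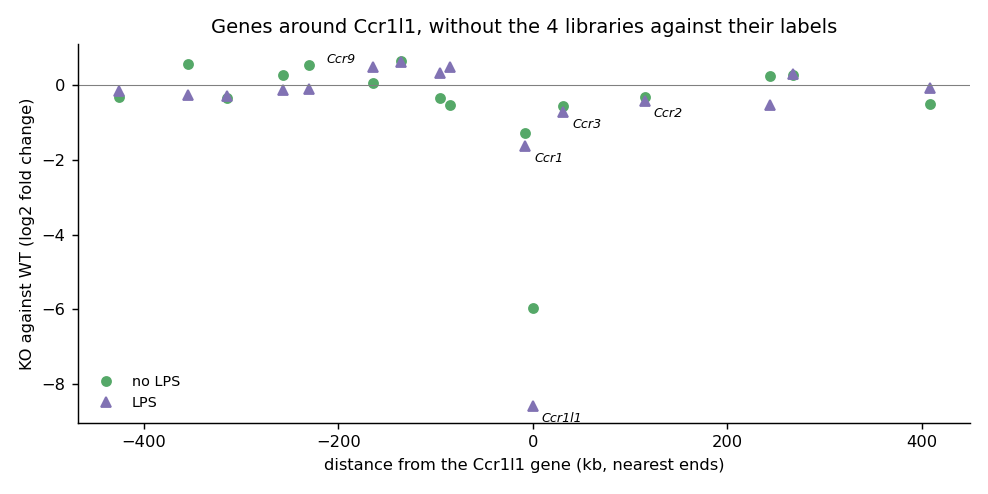
KO against WT differences (log2 fold change) of Ccr1l1 and the tested genes within 500 kb that are reported here, by distance from Ccr1l1 in kb, without LPS (circles) and with LPS (triangles), without the 4 libraries against their labels. Ccr1l1 sits at −5.96 and −8.59, and the other genes sit between −1.62 and 0.65.

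Other genes whose log2 levels (CPM plus 0.5) followed Ccr1l1 most closely over the 32 samples were Lrmda on chromosome 14 (Pearson r = 0.86), Tdo2 on chromosome 3 (0.75), Tmem229a on chromosome 6 (0.75), Ccr1 (0.73) and Gm16867 on chromosome 14 (0.72), among 15856 genes. The samples share depth, library sets and the genotype split on which Ccr1l1 was chosen. Lrmda was at 4.79 to 35.0 CPM in WT, including 5.54 CPM in library 5 of WT LPS, and at 1.02 to 4.78 CPM in KO, without overlap. In the sex experiment Lrmda was at 50.7 to 83.1 CPM over all 18 libraries, a level that is not compared between the experiments. Over the 16 WT samples alone the closest were 1500015A07Rik (r = 0.79), Sdr39u1 (0.74), Rnf14 (0.68), Anxa7 (0.62) and Kdsr (0.61), each of which had its lowest WT value in library 5 of WT LPS. Ccr1 followed Ccr1l1 with r = 0.30 over the WT samples and 0.23 over the KO samples. Over the 16 KO samples Ccr3 had r = 0.89 with Ccr1l1, where both were lower after LPS and highest in library 6 of KO ns. That r ranked 241 among 15856 genes, so many other genes followed Ccr1l1 more closely there.

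The remaining chemokine receptors of chromosome 9 were examined as a list of 10, of which 7 were tested in the LPS experiment. With LPS in KO, Ccr2, the Ccl2 receptor of inflammatory monocytes, fell by 1.76 ± 0.56 (log2, SE; edgeR, adjusted p = 0.0240), and no gene of the list was called higher. That comparison called 22.3% of all genes in either direction. The median of the list was −0.21, against −0.02 over all genes. Without the 4 libraries against their labels, Ccr2 fell in WT by 1.60 ± 0.45 (adjusted p = 0.00831), and Cxcr5, a follicular homing receptor, rose by 0.90 ± 0.31 in WT (adjusted p = 0.0284) and by 0.77 ± 0.27 in KO (adjusted p = 0.0295). The share of all genes called was then 30.7% in WT and 28.5% in KO. Cxcr5 was called in neither genotype with all libraries (adjusted p = 0.285 in WT and 0.0642 in KO), and not in WT without both sets (0.64 ± 0.27, adjusted p = 0.0591). Cx3cr1, the fractalkine receptor of microglia, was at −0.21 ± 0.39 in KO (adjusted p = 0.751). No gene of the list was called in KO against WT in either experiment. With all libraries, the share of all genes called there was 0.114% without LPS, 0.126% with LPS and 0.432% in the sex experiment.

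Of 11 chemokine and chemerin receptors on other chromosomes, 9 were tested in the LPS experiment. With LPS in KO, Ccr7, the lymph-node homing receptor, rose by 1.85 ± 0.67 (log2, SE; edgeR, adjusted p = 0.0457), and Ccr6 and Cxcr3, receptors of lymphocytes and dendritic cells, fell by 3.12 ± 0.48 (adjusted p = 0.000168) and 2.53 ± 0.54 (adjusted p = 0.00153). The list's median was −0.37. In WT without the 4 libraries against their labels, where 30.7% of all genes were called, Ccr7 rose by 3.31 ± 0.58 (adjusted p = 9.4e-05), and Ccr6, Cxcr3 and Cxcr4 fell. Summed B-cell markers (5 genes) were at 352 to 529 CPM in KO ns and 123 to 221 CPM in KO LPS, and 3 of the 5 were called lower with LPS in KO, where 22.3% of all genes were called in either direction. Summed dendritic cell markers (5 genes) were at 20.1 to 58.5 CPM in KO ns and 6.10 to 12.9 CPM in KO LPS. Of these 5, 3 were called lower and 2 had positive differences that were not called (median −1.97). Of 8 T and NK cell markers 3 were tested, with 1 called lower and 0 higher (median −1.48). The part of any of these cells in the falls of Ccr6 and Cxcr3 was not tested.

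Of 14 ligands listed for these receptors, 11 were tested with all libraries. In KO with LPS, where 22.3% of all genes were called in either direction, 4 of them rose, Ccl2 by 4.02 ± 0.94, Ccl12 by 3.42 ± 0.86, Ccl5 by 3.09 ± 0.57 and Ccl7 by 2.25 ± 0.68 (log2, SE; edgeR, adjusted p from 0.000606 to 0.0173). The ligands called lower were 3, namely Ccl24, the eotaxin ligand of Ccr3, at −3.46 ± 0.87 (adjusted p = 0.00487), Ccl8 at −2.003 ± 0.74 (adjusted p = 0.0484) and Ccl6 at −1.44 ± 0.48 (adjusted p = 0.0289). The list's median was 0.27, against −0.02 over all genes. In WT as labelled none was called. When the 4 libraries against their labels were left out, 12 were tested and 7 rose in WT, where 30.7% of all genes were called in either direction, among them Ccl3, a ligand of Ccr1, by 3.94 ± 0.79 (adjusted p = 0.000394), while Ccl24 was called lower at −3.58 ± 0.51 (adjusted p = 6e-06). Without both sets of libraries Ccl3 was at 2.23 ± 0.36 in WT (adjusted p = 1.9e-05), and Ccl4 and Ccl7, which were among the 7, were not called. With only the 4 libraries against their labels left out, Ccl11, the other eotaxin in the list, rose by 2.47 ± 0.77 in WT (adjusted p = 0.0162) and by 2.45 ± 0.61 in KO (adjusted p = 0.00322). Ccl25, the ligand of Ccr9, was at 0.27 ± 0.14 in KO with LPS (adjusted p = 0.182). In the sex experiment Ccl3 was 0.58 ± 0.12 higher in KO (adjusted p = 0.0431), and Rarres2, which encodes the chemerin bound by Ccrl2, was at 0.09 ± 0.08 (adjusted p = 0.871).

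Of 20 genes of G-protein coupling and desensitisation downstream of these receptors, all were tested. With LPS in KO, Rac2, a GTPase of leukocyte migration, rose by 0.81 ± 0.20 (log2, SE; edgeR, adjusted p = 0.00392), and Rgs1 and Rgs2, which shorten G-protein signals, fell by 1.25 ± 0.36 (adjusted p = 0.0119) and 1.42 ± 0.37 (adjusted p = 0.00615). The list's median was 0.20. Of the 20, 1 was called higher and 2 lower, in a comparison that called 22.3% of all genes in either direction. Without the 4 libraries against their labels, Rgs2 fell by 1.02 ± 0.32 in WT (adjusted p = 0.0167) and Arrb1, a beta-arrestin, by 1.19 ± 0.42 (adjusted p = 0.0326), where 30.7% of all genes were called. No gene of the list was called in KO against WT in either experiment. With all libraries, the share of all genes called there was 0.114% without LPS, 0.126% with LPS and 0.432% in the sex experiment.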

How the data were processed

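The deposited tables hold raw read counts per gene, made by the authors with STAR 2.6.1 and featureCounts on GRCm39, per the submitters' processing notes; the strand setting is not given in the sources used here. Groups came from the labels. Counts were analysed with edgeR 4.0.16 (filterByExpr, TMM, robust quasi-likelihood test, Benjamini-Hochberg over all genes tested, called at 0.05). The LPS experiment was fitted as 4 group means plus library set, over 32 samples, the sex experiment as 4 group means over 18 libraries. CPM are counts over the library totals of the genes that passed the filter, scaled by TMM factors. SE were derived from the log2 fold change and the F statistic. The script was tested on simulated data. DESeq2 1.42.0, other scalings, filters and left-out libraries were alternatives. A further 6 repeat libraries of the sex experiment were not analysed here. Between libraries of a group, edgeR estimated a variation of 46.1% (LPS) and 35.3% (sex). Members and gene lists were chosen with earlier results of these data known. Named genes were the members, called genes of 4 lists, neighbours within 500 kb and the 5 closest followers of Ccr1l1; no gene met a further rule (all KO libraries under 2 CPM, WT median of at least 10 CPM). Sequences came from GENCODE vM21 and RefSeq tables on GRCm38. A gene of the lists is not reported here.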

Additional observations from a re-analysis of the deposited data

Results flagged for a closer look

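Across 40 combinations of gene and group, 14 held a library far from the others of its group by Dixon's test, which chance flags in about 1 in 20. Library 6 of KO ns was highest for Ccr1l1 at 8.50 CPM (others 1.49 to 2.38), Ccr1 at 77.5 CPM (15.4 to 44.0), Ccr3 at 34.0 CPM (4.65 to 15.1) and Ccrl2 at 28.1 CPM (9.16 to 16.5). Library 5 of KO LPS was highest for Ccr1 at 92.2 CPM (28 to 54.9) and Ccr9 at 2.603 CPM (0.322 to 1.09). Library 6 of WT LPS was highest for Ccr3 at 75.5 CPM (0.483 to 12.2) and Ccr9 at 2.19 CPM (0.265 to 0.978), and library 7 of WT LPS for Ccrl2 at 70.6 CPM (7.29 to 22.4). These 4 libraries are those that stood apart over all genes.

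In the sex experiment, Ccr1l1 was at 7.67 CPM in male KO 3 (others 3.83 to 4.37). Ccr1 was at 139 CPM in female WT 2 (16.8 to 33.8) and Ccr3 at 33.4 CPM in male WT 5 (9.03 to 10.5), the libraries with the highest neutrophil and eosinophil marker sums. Ccr3 was at 11.9 CPM in female KO 4 (3.02 to 5.42), which had an eosinophil marker sum of 455 CPM. Ccr9 was lowest in male KO 1 at 0.726 CPM (1.13 to 1.27).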

How the results depend on the processing

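Over 581 alternative fits of 35 gene-level differences, 553 kept their sign. The omission of the libraries that stood apart, of both sets, and of male WT 5 with female WT 2 was chosen after seeing the data. For LPS in KO (3542 genes called), the count was 0 in library set 2 by itself (2126 at an unadjusted p under 0.05), 6003 without the libraries that stood apart and 7753 without both sets. For LPS in WT (0 called) it was 732 by DESeq2, 36 with libraries 8 and 9 apart, 4934 without the 4 against their labels, 5739 without every library numbered 2, 740 without those that stood apart and 7393 without both sets. For KO against WT without LPS (18 called) it was 157 by DESeq2, 11 with a mean of at least 5 CPM, 8 in set 1, 0 in set 2, 38 without those that stood apart and 42 without both sets. With LPS (20 called) it was 135 by DESeq2, 8 without a filter, 5 with a mean of at least 5 CPM, 10 in set 1, 0 in set 2, 12 with the replicate block, 11 with libraries 8 and 9 apart, 12 without the 4 and 7 without those that stood apart. For the interaction (0 called) it was 11 by DESeq2 and 1 without both sets. In the sex experiment (137 called) it was 359 by DESeq2, 218 with a mean of at least 5 CPM, 309 without male WT 5 and female WT 2, and 54 to 279 with 1 library left out.

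The libraries share only a number, and with the replicate block 4336 genes were called for LPS in KO, 16 for KO against WT without LPS and 181 in the sex experiment, and no call of the 5 genes changed. In the LPS experiment, libraries of different groups with the same set and number had a mean correlation of 0.348 (lowest −0.71). All other pairs of libraries from different groups had 0.057, among them pairs from different sets. Set and number were thus not separated in this comparison. In the sex experiment the mean was 0.200 (lowest −0.58) for libraries with the same number and −0.037 for the others. Same-numbered libraries of the sex experiment were thus more alike on average, and the main fits do not include the number.

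The LPS difference of Ccr1l1 in KO was called in 9 of 14 alternative fits. It was not called without a filter (adjusted p = 0.0702), in set 2 (0.489), without every library numbered 2 (0.0596), without those that stood apart (0.0837) or without both sets (0.0918). KO against WT with LPS was called for Ccr3 by DESeq2 (adjusted p = 0.0025), and without LPS for Ccr1 by DESeq2 (0.0172) and without those that stood apart (0.0186). Signs turned as follows, on the log2 scale. For LPS in KO, Ccrl2 was −0.0089 with a mean of at least 5 CPM and −0.094 without libraries numbered 2. For LPS in WT, Ccr3 was 0.10 without the set term and 0.68 in set 2, Ccrl2 −0.057 in set 1 and Ccr9 −0.041 without those that stood apart. For KO against WT without LPS, Ccr9 was 0.43 in set 1, 0.074 without the 4 and 0.19 without both sets, and Ccr3 0.45 in set 2. With LPS, Ccrl2 was 0.25 in set 1, 0.16 without those that stood apart and 0.12 without both sets. In the interaction, Ccrl2 was 0.16 in set 1, Ccr1 0.054 without those that stood apart, and Ccr3 0.64 and Ccr9 −0.14 without both sets. Without male WT 5 and female WT 2, Ccr1 was 0.20 and the sex difference of Ccrl2 −0.015. With 1 library left out, that sex difference ranged from −0.47 to 1.40 for Ccr1, −0.83 to 0.36 for Ccr3 −0.0051 to 0.36 for Ccrl2 and −0.067 to 0.32 for Ccr1l1. The cause was not tested.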
